A study of Homo sapiens with 4 samples.

Results

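The BCL2 family decides whether the outer membrane of the mitochondrion is opened, the step that commits a cell to intrinsic apoptosis. Guardian proteins (BCL2, BCL-xL from BCL2L1, and MCL1) hold the membrane closed, the effectors BAX and BAK1 form the pores, and BH3-only proteins (BIM from BCL2L11, BID, PUMA from BBC3, NOXA from PMAIP1, and BIK) relay stress by binding guardians or effectors. In breast epithelial cells BCL-xL and MCL1 are well known as survival factors, and drugs against BET proteins, a class of readers of histone acetylation, are known to alter transcripts of several family members. The 10 genes named here were taken by symbol from a fixed list of the family, out of 60487 genes in each file, and every one was found once.

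RNA came from HCC1937, an established line of human breast cancer cells known to lack functional BRCA1. The 4 groups were wtBRCA1 cells (HCC1937 with restored BRCA1, labelled wild type) under OTX-015, wtBRCA1 cells under the solvent DMSO, vector cells (HCC1937 with an empty vector, labelled BRCA1 -/-) under OTX-015, and vector cells under DMSO. OTX-015 (birabresib) is a BET inhibitor, and the labels give neither its dose and time of exposure, nor whether the wtBRCA1 line is 1 clone, nor which promoter drives BRCA1. Each group had 1 library, so no value has a replicate, the difference between a pair of libraries has no test, and the order of members by level cannot be set against a spread.

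The summed FPKM (fragments per kilobase of transcript length, scaled to mapped fragments) was 1477103 and 962378 in wtBRCA1 cells under OTX-015 and DMSO and 1496107 and 909314 in vector cells, with 15004 to 15669 genes at 1 FPKM or more. The 10 highest genes held 33.8% and 39.2% of it in the OTX-015 libraries of wtBRCA1 and vector cells, against 15.3% and 17.4% in the DMSO libraries. The highest of them, AC026803.1, is given the same interval in the files as FTL, and held 14.8% and 17.3% of the sum under OTX-015 in wtBRCA1 and vector cells, against 2.55% and 3.66% under DMSO. BRCA1 was listed at 2712 and 171 FPKM in wtBRCA1 cells and at 40.8 and 37.2 FPKM in vector cells, under OTX-015 and DMSO in each line. Of 10 epithelial markers, 9 or 10 were at 1 FPKM or more in every library. Fibroblast and endothelial markers summed to 0.670 to 9.78 FPKM, with DCN and VWF at 0 in all 4. The highest fibroblast marker, COL1A1, was at 8.39 and 9.78 FPKM in wtBRCA1 cells under OTX-015 and DMSO and at 4.01 and 1.86 FPKM in vector cells. The highest endothelial marker, PECAM1, was at 2.11 and 3.15 FPKM in wtBRCA1 and 0.670 and 4.88 FPKM in vector cells. Of 6 leukocyte markers, 2 were at 1 FPKM or more in both wtBRCA1 libraries and 1 in both vector libraries, and they summed to 50.2 and 31.7 FPKM in wtBRCA1 cells under OTX-015 and DMSO and to 24.8 and 15.7 FPKM in vector cells. CD68, a lysosomal gene, was the highest in each library, CD14, a monocyte marker, was at 5.62 and 9.51 FPKM in wtBRCA1 cells and at 0 and 0.109 FPKM in vector cells, and CD3E was at 0 in all 4. The part of these markers in the differences between the lines was not tested.

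A pair of promoters is shown first because BCL2L1 and BID, a guardian and a BH3-only gene, each had their lowest level in the wtBRCA1 OTX-015 library. RefSeq promoter sequences of 300 bases, placed by the gene start of that source, matched 8 of the 10 members, not MCL1 and BIK. The BCL2L1 window is chr20:31723914-31724213 and the BID window chr22:17774420-17774719 (GRCh38.p14), both on the minus strand and written 5′ to 3′, and capitals mark every match, on either strand, to a motif searched.
BCL2L1: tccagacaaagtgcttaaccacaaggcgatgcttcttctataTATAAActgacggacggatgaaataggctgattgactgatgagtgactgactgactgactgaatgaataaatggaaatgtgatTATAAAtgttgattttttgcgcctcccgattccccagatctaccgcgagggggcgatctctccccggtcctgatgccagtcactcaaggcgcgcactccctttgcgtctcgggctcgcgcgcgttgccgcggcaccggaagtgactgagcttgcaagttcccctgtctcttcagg
BID: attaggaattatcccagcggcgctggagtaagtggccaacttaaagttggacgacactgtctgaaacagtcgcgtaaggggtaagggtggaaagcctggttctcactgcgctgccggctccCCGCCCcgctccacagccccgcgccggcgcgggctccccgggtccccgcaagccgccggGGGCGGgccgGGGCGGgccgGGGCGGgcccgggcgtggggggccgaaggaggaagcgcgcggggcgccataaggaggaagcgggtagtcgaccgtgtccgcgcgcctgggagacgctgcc
The motifs were TATAAA (present in 11.5% of the 35116 promoters), CCAAT (34.6%), the E-box CACGTG (7.26%), the cAMP response element TGACGTCA (1.85%), the GC box GGGCGG (45.0%) and the AP-1 element TGAGTCA (4.95%). The capitals in the BCL2L1 window are 2 TATAAA matches and those in the BID window 4 GC boxes, none of them overlapping, and the other motifs had no match in either. The GC content was 52.0% in the BCL2L1 window and 71.7% in the BID window, beside a median of 58.7% over all promoters. The start of BCL2L1 in GENCODE 29 (31723989) lies in its window. That of BID (17774770) lies outside, so the BID window falls inside the gene as annotated there, and the 2 windows are not placed alike. These letters describe the windows and show no binding.

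**Figure D1:**
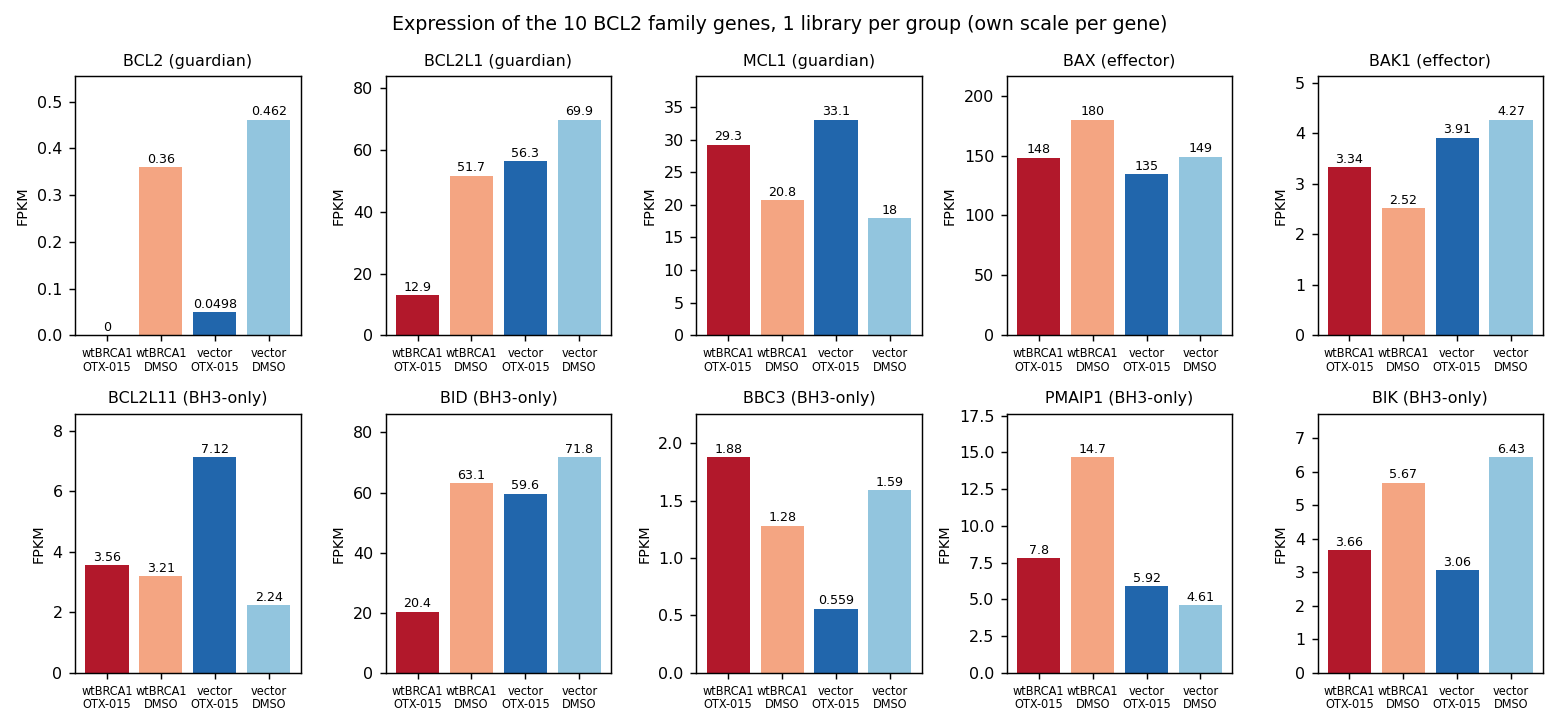
FPKM of each of the 10 genes in the 4 libraries, 1 bar per library and a separate linear axis from 0 for each gene. BCL2L1 and BID are lowest in wtBRCA1 cells under OTX-015 (12.9 and 20.4 FPKM), and MCL1 is above its DMSO value in both lines.

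The guardians come first. BCL2L1 (ENSG00000171552, chromosome 20, 31664452 to 31723989, minus strand, GENCODE 29 on hg38) encodes BCL-xL and a shorter isoform that promotes death, which a value per gene does not separate. It was at 12.9 and 51.7 FPKM in wtBRCA1 cells under OTX-015 and DMSO, and at 56.3 and 69.9 FPKM in vector cells. The wtBRCA1 OTX-015 library stood below the other 3, which lay within 51.7 to 69.9 FPKM. OTX-015 over DMSO gave 0.249 in wtBRCA1 cells and 0.806 in vector cells, or -1.92 and -0.31 on the log2(FPKM + 1) scale, on which all log2 differences here are given. Of all genes kept (18295 with 1 FPKM or more in a library), 2.50% had a difference in wtBRCA1 cells at or below that of BCL2L1. RNA was taken from whole cultures, so fewer cells with the transcript and less of it per cell cannot be told apart.

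BCL2L1 overlaps ABALON, an antisense long noncoding RNA on the plus strand (chromosome 20, 31721507 to 31723409). Of 1903 exonic bases of ABALON, 1424 also lie in exons of BCL2L1. ABALON was at 140 and 253 FPKM in wtBRCA1 cells under OTX-015 and DMSO and at 275 and 387 FPKM in vector cells, so it was listed above BCL2L1 in every library. The libraries were made with a directional kit, but the labels do not say if Cufflinks was run with strand, so reads of the pair cannot be told apart and BCL2L1 is uncertain to that extent. When both were summed by exonic length, an alternative chosen after seeing the data, the wtBRCA1 difference became -1.07 in place of -1.92, still lower and past 1 log2 unit.

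MCL1 (ENSG00000143384, chromosome 1, 150574551 to 150579738, minus strand) encodes a short-lived guardian. Its level was 29.3 and 20.8 FPKM in wtBRCA1 cells under OTX-015 and DMSO and 33.1 and 18.0 FPKM in vector cells. Both OTX-015 libraries were above both DMSO libraries, by 0.48 log2 in wtBRCA1 and 0.84 in vector cells. When each library was rescaled to the same sum (TPM), which moved the median of all genes under OTX-015 by -0.45 in wtBRCA1 and -0.50 in vector cells, the MCL1 differences were -0.12 and 0.15. In the files MCL1 shares its locus with ADAMTSL4-AS1, which has 2 exonic bases in common with it and was at 1.58 and 2.56 FPKM in wtBRCA1 and 57.6 and 48.2 FPKM in vector cells.

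BCL2 (ENSG00000171791, chromosome 18, 63123346 to 63320128, minus strand), the founding guardian, was nearly silent. It was listed at 0 and 0.360 FPKM in wtBRCA1 cells under OTX-015 and DMSO and at 0.0498 and 0.462 FPKM in vector cells. It did not reach 1 FPKM in any library and was left out of the fit, so 9 of the 10 members were kept. Both OTX-015 libraries were below both DMSO libraries, at levels where the unknown depth sets the precision.

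A ratio of genes within a library does not depend on how that library was scaled. MCL1 over BCL2L1 was 2.27 and 0.401 in wtBRCA1 cells under OTX-015 and DMSO and 0.588 and 0.258 in vector cells. The ratio was thus 5.65 times its DMSO value in wtBRCA1 cells and 2.28 times in vector cells, and MCL1 was the more abundant guardian in the wtBRCA1 OTX-015 library, where it took 69.4% of guardian FPKM against 28.5% under DMSO. In vector cells it took 37.0% under OTX-015 and 20.4% under DMSO. With ABALON added to BCL2L1 the ratios were 0.313 and 0.106 in wtBRCA1 and 0.154 and 0.0617 in vector cells, which are 2.97 and 2.50 times the DMSO value, so the direction held in both lines, while MCL1 no longer exceeded BCL2L1 in any library and the gap between the lines was smaller.

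**Figure D2:**
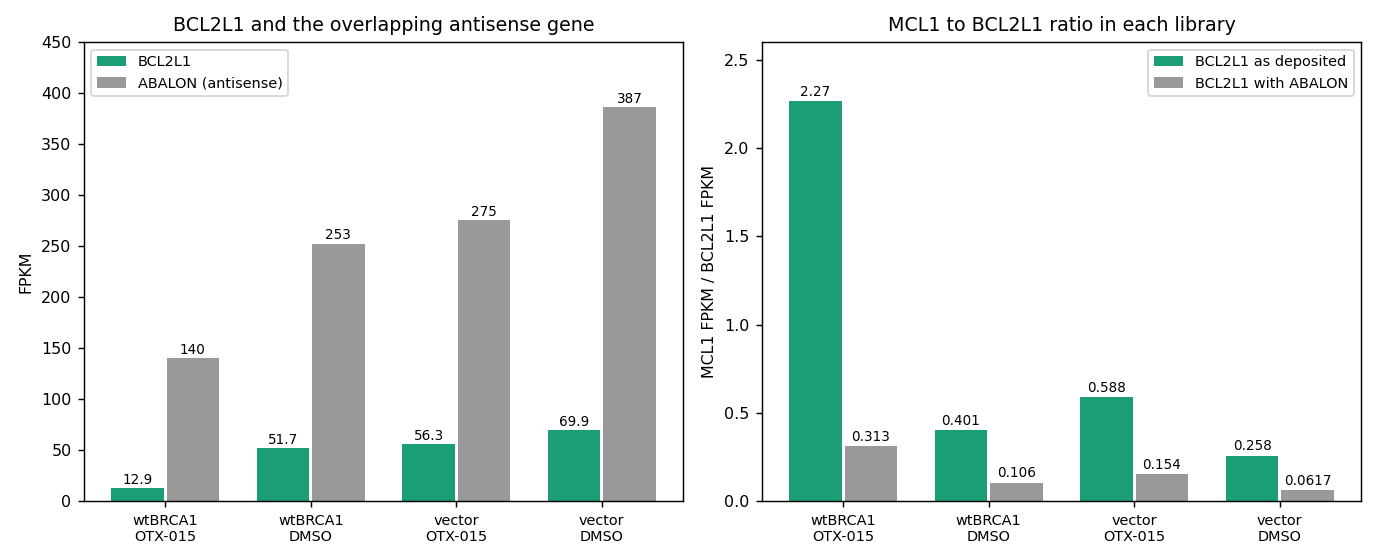
Left, FPKM of BCL2L1 and of its antisense neighbour ABALON in each library; right, the ratio of MCL1 to BCL2L1 with BCL2L1 as deposited and with ABALON added by exonic length. ABALON is listed above BCL2L1 in all 4 libraries, and the ratio is above its DMSO value in both OTX-015 libraries in either form (2.27 against 0.401 and 0.588 against 0.258 as deposited).

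Among the effectors, BAX (ENSG00000087088, chromosome 19, 48954815 to 48961798, plus strand), which moves from the cytosol to the mitochondrion on activation, had the highest FPKM of the family in all 4 libraries as deposited. With ABALON added to BCL2L1, BAX over BCL2L1 was 1.59 and 0.915 in wtBRCA1 cells under OTX-015 and DMSO and 0.628 and 0.511 in vector cells. BAX then stayed above BCL2L1 only in the wtBRCA1 OTX-015 library. BAX was at 148 and 180 FPKM in wtBRCA1 cells under OTX-015 and DMSO and at 135 and 149 FPKM in vector cells. The highest value was 1.34 times the lowest, the narrowest range of the members above 0 in every library. The differences under OTX-015 were -0.28 in wtBRCA1 and -0.15 in vector cells. BAX lies 3502 bases from FTL, at up to 1793 FPKM, but their exons share 0 bases and the files place them in separate loci. AC026803.1, with the interval of FTL in the files, was at 218888 and 24547 FPKM in wtBRCA1 and 258769 and 33305 FPKM in vector cells, and its exons were not compared with those of BAX. BAK1 (ENSG00000030110, chromosome 6, 33572547 to 33580293, minus strand), which sits in the outer membrane, was at 3.34 and 2.52 FPKM in wtBRCA1 and 3.91 and 4.27 FPKM in vector cells under OTX-015 and DMSO. BAK1 thus stood far below BAX, by 44.5 and 71.4 times in wtBRCA1 and 34.4 and 34.9 times in vector cells. Its pseudogene copy BAK1P1 was at 1.37 to 2.67 FPKM, and reads could have been divided between them. GGNBP1, on the plus strand, shares 91 exonic bases with BAK1. It was at 1.57 and 0.931 FPKM in wtBRCA1 and 2.09 and 1.04 FPKM in vector cells, so BAK1 is also uncertain to that extent.

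Of the BH3-only genes, BID (ENSG00000015475, chromosome 22, 17734138 to 17774770, minus strand), which links death receptors to mitochondria after cleavage by caspase-8, was the most abundant. It was at 20.4 and 63.1 FPKM in wtBRCA1 cells under OTX-015 and DMSO and at 59.6 and 71.8 FPKM in vector cells. As with BCL2L1, the wtBRCA1 OTX-015 library stood below the other 3. The differences were -1.58 in wtBRCA1 and -0.26 in vector cells, and 4.38% of genes were at or below the value in wtBRCA1 cells. BID over BCL2L1 was 1.58 and 1.22 in wtBRCA1 cells under OTX-015 and DMSO and 1.06 and 1.03 in vector cells. With ABALON added to BCL2L1, BID was the lower of the pair in every library, at 0.218 and 0.321 in wtBRCA1 and 0.278 and 0.246 in vector cells, and the direction under OTX-015 turned in wtBRCA1 cells.

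BCL2L11 (ENSG00000153094, chromosome 2, 111119378 to 111168447, plus strand) encodes BIM, which binds all guardians. It was at 3.56 and 3.21 FPKM in wtBRCA1 cells under OTX-015 and DMSO and at 7.12 and 2.24 FPKM in vector cells. The vector OTX-015 library was the highest, 3.17 times its DMSO library and 1.32 log2 higher, while the wtBRCA1 libraries differed by 0.12. Of all genes, 6.97% were at or above the difference in vector cells. It came to 0.74 with a pseudocount of 5 and 0.76 after rescaling to the same sum, under 1 log2 unit in both. The ratio of BCL2L11 to BCL2L1 was 0.276 and 0.0619 in wtBRCA1 and 0.127 and 0.0321 in vector cells, 4.45 and 3.94 times the DMSO value. With ABALON added these became 2.34 times in wtBRCA1 and 4.32 times in vector cells, so the direction held in both lines but the order of the lines turned.

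PMAIP1 (ENSG00000141682, chromosome 18, 59899948 to 59904306, plus strand) encodes NOXA, which neutralises MCL1. It was at 7.80 and 14.7 FPKM in wtBRCA1 cells under OTX-015 and DMSO and at 5.92 and 4.61 FPKM in vector cells. The wtBRCA1 DMSO library was the highest, 3.18 times the vector DMSO library and 1.48 log2 higher, and 6.74% of genes were at or above that difference. BIK (ENSG00000100290, chromosome 22, 43110748 to 43129712, plus strand), a BH3-only protein of the endoplasmic reticulum, was at 3.66 and 5.67 FPKM in wtBRCA1 and 3.06 and 6.43 FPKM in vector cells. Both OTX-015 libraries were below both DMSO libraries, by -0.52 in wtBRCA1 and -0.87 in vector cells. BBC3 (ENSG00000105327, chromosome 19, 47220822 to 47232766, minus strand), which encodes PUMA, was at 1.88 and 1.28 FPKM in wtBRCA1 and 0.559 and 1.59 FPKM in vector cells. The values ran in opposite directions in the 2 lines, at levels near the filter.

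**Figure D3:**
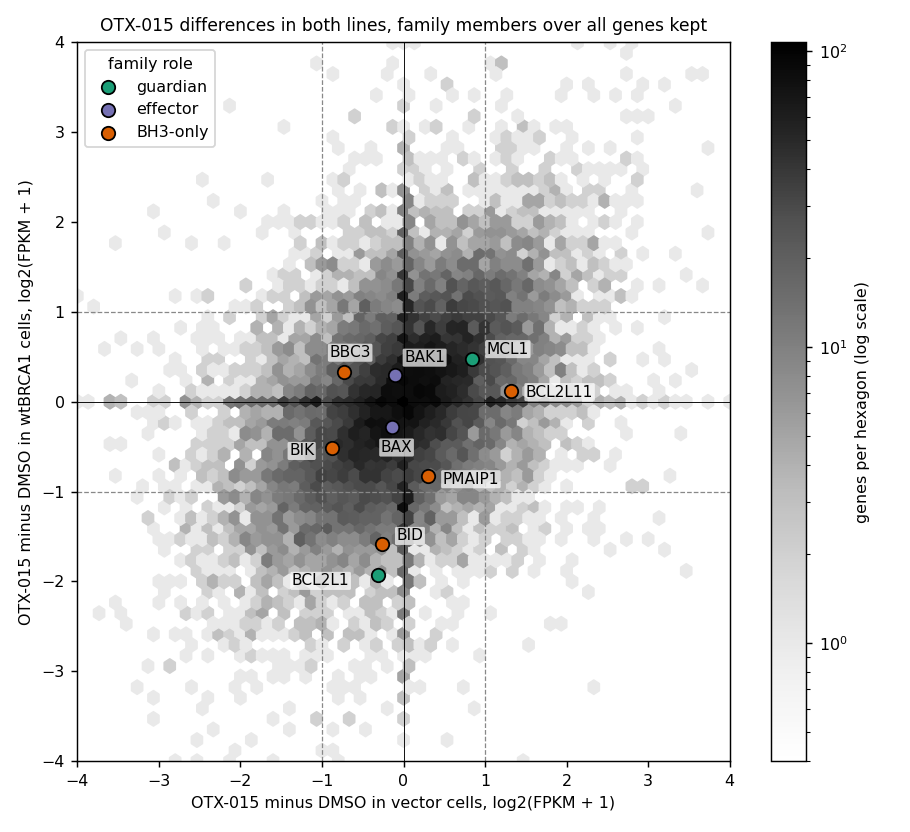
OTX-015 minus DMSO in wtBRCA1 cells (vertical) against the same difference in vector cells (horizontal), both on the log2(FPKM + 1) scale; grey hexagons count the 18295 genes kept (76 of them outside the axes) and dashed lines mark 1 log2 unit. BCL2L1 and BID lie below -1 in wtBRCA1 cells, BCL2L11 lies above 1 in vector cells, and no member is past 1 log2 unit in both lines.

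The comparison of OTX-015 with DMSO asked which transcripts the inhibitor altered in both lines. In the limma fit with line and treatment as terms, 0 of the 9 members kept passed an adjusted p of 0.05 for OTX-015, against a background of 6.32% of the 18295 genes. At an unadjusted p under 0.05 there were 2, BCL2L1 and BID, against 22.8% of all genes. The effects were -1.11 ± 0.40 log2 for BCL2L1 (SE, limma adjusted p = 0.136) and -0.92 ± 0.37 for BID (limma adjusted p = 0.171), both lower in 2 of 2 lines. MCL1 had 0.66 ± 0.33 (limma adjusted p = 0.277) and BCL2L11 0.72 ± 0.44 (limma adjusted p = 0.378), each higher in 2 of 2 lines as deposited. In wtBRCA1 cells BCL2L11 kept that sign in 3 of 5 scalings, with -0.36 after rescaling to the same sum, where its effect over both lines was 0.20. The residual of this fit is the difference between the lines' responses, with 1 degree of freedom per gene. limma moderates it with the variance of all genes at a like level (8.64 prior degrees of freedom), so each SE rests mostly on other genes. The p-values thus measure agreement between the lines on that shared variance, and not the spread between cultures. After rescaling to the same sum, BCL2L1 and BID passed, with limma adjusted p of 0.0456 and 0.0463 and effects of -1.76 and -1.58. In that scaling 1620 of the 18295 genes were called lower and 141 higher. It moved the median of all genes by -0.45 in wtBRCA1 and -0.50 in vector cells. Over the alternatives tried, the limma adjusted p ran up to 0.686 for BCL2L1 and 0.674 for BID. The fit was not repeated with ABALON added to BCL2L1, for either term.

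Pair by pair, 0 of 9 members were at least 1 log2 unit higher under OTX-015 in wtBRCA1 cells (13.0% of all genes) and 2 were lower, BCL2L1 and BID (13.4%). In vector cells 1 was higher, BCL2L11 (13.0%), and 0 were lower (12.7%). In both lines together, with the same sign, there were 0 (9.00%). The median difference of the members was -0.28 in wtBRCA1 and -0.15 in vector cells, beside 0 over all genes in each line. These shares, with so few members, are not apart from the background.

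The lines' responses, wtBRCA1 minus vector, differed by at least 1 log2 unit downwards in 4 of 9 members, against 14.0% of all genes, and upwards in 1, against 13.2%. The differences of response were -1.62 for BCL2L1, -1.32 for BID, -1.21 for BCL2L11 and -1.13 for PMAIP1, and 1.07 for BBC3. Between 4.85% (BCL2L1) and 11.1% (PMAIP1) of genes were at or below the values of the 4, and 11.9% were at or above that of BBC3. No residual is left for a test of these values. They stayed past 1 log2 unit under the 4 other scalings for BCL2L1, BID, BCL2L11 and PMAIP1, but with a pseudocount of 5 BCL2L11, PMAIP1 and BBC3 came to -0.68, -0.80 and 0.38, and with ABALON added BCL2L1 came to -0.62. BRCA1 itself was listed at 2712 and 171 FPKM in wtBRCA1 cells under OTX-015 and DMSO. In that line the treatment and the BRCA1 level cannot be told apart.

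**Figure D4:**
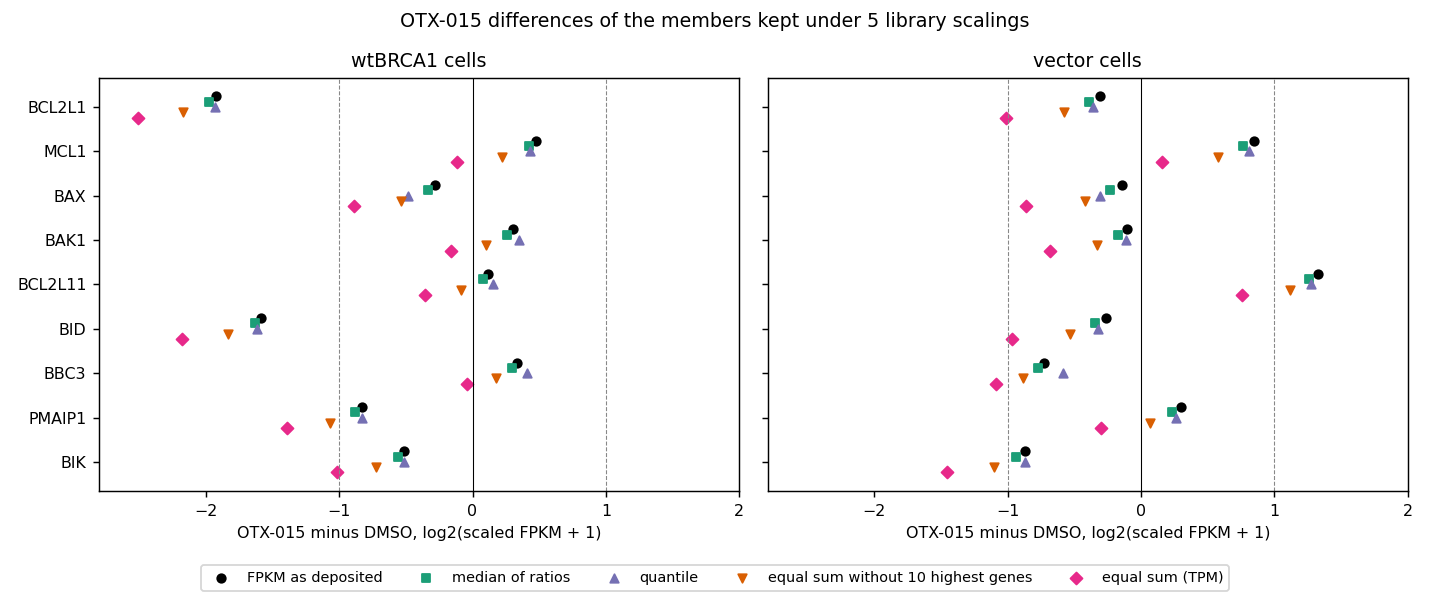
OTX-015 minus DMSO for the 9 members kept, under 5 scalings of the libraries, in wtBRCA1 (left) and vector cells (right), on a log2 scale with dashed lines at 1 log2 unit. Rescaling to an equal sum shifts every member downwards, and BCL2L1 and BID in wtBRCA1 cells stay below -1 under all 5, between -2.51 and -1.92 for BCL2L1 and between -2.18 and -1.58 for BID. BCL2L1 is drawn without ABALON, whose addition made its difference in wtBRCA1 cells smaller.

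The comparison of the lines asked which transcripts went with restored BRCA1, which cannot be told apart from other differences between the 2 lines. The 2 wtBRCA1 libraries also differed in their BRCA1 level. For the line term, 0 of 9 members passed an adjusted p of 0.05 in limma, against 8.29% of all genes, and 3 had an unadjusted p under 0.05, against 23.5%. These were BCL2L1 (-1.23 ± 0.40 log2, SE, limma adjusted p = 0.0948), BID (-0.84 ± 0.37, limma adjusted p = 0.206) and PMAIP1 (0.92 ± 0.40, limma adjusted p = 0.208), each with the same sign under both treatments. Under OTX-015, wtBRCA1 and vector cells differed by at least 1 log2 unit either way in 2 of 9 members, against 27.7% of all genes, and both were lower in wtBRCA1 cells, BCL2L1 with -2.04 and BID with -1.50. Under DMSO they differed by as much in 1 of 9, against 26.5%, which was PMAIP1, higher in wtBRCA1 cells, with BCL2L1 at -0.43 and BID at -0.18. Past 1 log2 unit with the same sign under both treatments there were 0 (10.5%). The BCL2L1 values depend on the division of reads with ABALON. As deposited, BCL2L1 in wtBRCA1 over vector cells was 0.229 under OTX-015 and 0.740 under DMSO. With ABALON added these ratios became 0.435 and 0.674.

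The family transcript pool was read by role within each library. In wtBRCA1 cells guardians, effectors and BH3-only genes held 18.2%, 65.6% and 16.1% of the summed FPKM under OTX-015, against 21.2%, 53.2% and 25.6% under DMSO. In vector cells they held 29.4%, 45.5% and 25.1% under OTX-015, against 26.9%, 46.7% and 26.4% under DMSO. BAX was 11.5 and 3.48 times BCL2L1 in wtBRCA1 cells under OTX-015 and DMSO and 2.39 and 2.13 times in vector cells. Guardian FPKM summed to 42.2 and 72.9 in wtBRCA1 and to 89.5 and 88.4 in vector cells, and BH3-only FPKM to 37.3 and 87.9 and to 76.3 and 86.6. Both sums were lowest in the wtBRCA1 OTX-015 library, and BH3-only over guardian FPKM was 0.884 and 1.21 in wtBRCA1 and 0.853 and 0.980 in vector cells. These values depend on how reads were divided between BCL2L1 and ABALON. With ABALON added, guardians held 39.3% and 44.6% of the pool in wtBRCA1 and 53.5% and 56.4% in vector cells, and effectors 48.7% and 37.4% and 30.0% and 27.9%. BAX was then 1.59 and 0.915 times BCL2L1 in wtBRCA1 and 0.628 and 0.511 times in vector cells. BH3-only over guardian FPKM was then 0.304 and 0.403 in wtBRCA1 and 0.308 and 0.279 in vector cells, with the direction under OTX-015 turned in vector cells.

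**Figure D5:**
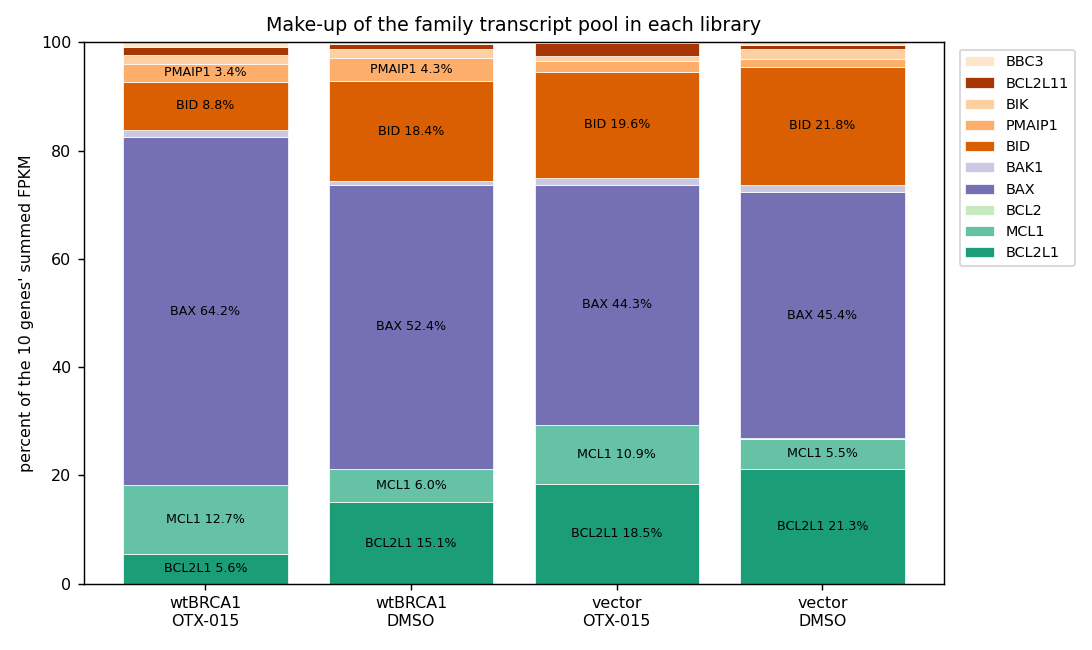
Percent of the summed FPKM of the 10 genes held by each gene in each library (stacked bars, green guardians, purple effectors, orange BH3-only genes). BAX holds 64.2% in wtBRCA1 cells under OTX-015, against 52.4% under DMSO, and BCL2L1 5.59% against 15.1%, while MCL1 is above its DMSO share in both lines. BCL2L1 is drawn as deposited, without ABALON.

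Other genes of the pathway were read from fixed lists, and their counts stand beside the 6.32% of all genes called for OTX-015 and the 8.29% called for the line. Of 13 other BCL2 family genes, 11 were kept and 0 rose or fell under OTX-015 in limma, with medians of -0.15 in wtBRCA1 and 0.02 in vector cells. For the line 1 rose, BCL2L12, an atypical member, at 133 and 131 FPKM in wtBRCA1 cells under OTX-015 and DMSO against 59.2 and 56.2 FPKM in vector cells (1.18 ± 0.28 log2, SE, limma adjusted p = 0.0317), and 1 fell, the mitophagy receptor BNIP3L (-1.77 ± 0.41, limma adjusted p = 0.0302), named here after its values were seen. The guardian BCL2L2 was at 15.3 and 17.3 FPKM in wtBRCA1 and 18.6 and 15.9 FPKM in vector cells, and the guardian BCL2A1 was listed at 0 in all 4 libraries. These BCL2L12 and BNIP3L calls were kept in 2 and 1 of 11 alternatives.

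Of 20 genes of the apoptosome, caspases and their inhibitors, all were kept and 0 rose or fell for either term, with OTX-015 medians of 0.13 in wtBRCA1 and 0.11 in vector cells. Of 12 death receptor genes, 9 were kept and 0 rose or fell under OTX-015 (6.32% of all genes called), with medians of -0.37 and 0.07. For the line (8.29% of all genes called) 1 death receptor gene rose, the ligand TNFSF10 (TRAIL), at 2.57 and 21.8 FPKM in wtBRCA1 cells under OTX-015 and DMSO against 0.284 and 0.0842 FPKM in vector cells (2.93 ± 0.64 log2, SE, limma adjusted p = 0.0227, kept in 2 of 11 alternatives). Of 9 outer membrane partners and degradation factors, 1 fell under OTX-015 (6.32% of all genes called), the mitochondrial deubiquitinase USP30, at 1.68 and 6.08 FPKM in wtBRCA1 and 1.44 and 7.60 FPKM in vector cells (-1.61 ± 0.41, limma adjusted p = 0.0476, kept in 2 of 11 alternatives), and 0 rose. The medians of this list were 0.12 and -0.11.

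Among 11 transcription factors known to act on BH3-only genes, 1 rose under OTX-015 (6.32% of all genes called), ATF3, by 1.97 ± 0.36 log2 (SE, limma adjusted p = 0.0166, kept in 6 of 11 alternatives), and 0 fell, with medians of 0.41 and 0.03. It was at 26.6 and 6.51 FPKM in wtBRCA1 and 10.1 and 1.64 FPKM in vector cells under OTX-015 and DMSO. ATF3 also rose for the line, for which 8.29% of all genes were called (1.41 log2, limma adjusted p = 0.041, kept in 1 of 11 alternatives).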

How the data were processed

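Poly(A)-selected RNA was sequenced from 4 libraries, 1 per group, after directional library preparation, per the labels' protocols. The authors deposited 1 FPKM value per gene and library, and the submitters' processing notes name TopHat2, Cufflinks and hg38. Tool versions, annotation and library scaling are not given in the sources used here. The files hold no counts, so depth is unknown, and the ratio of low values between libraries was shared by at most 4 genes of 331 to 588.

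Genes were matched to GENCODE 29 (94.2% of identifiers), 7513 genes for short structural RNAs were set aside and rows sharing a symbol (68 symbols) were summed. The 18295 genes with 1 FPKM or more in a library were analysed as log2(FPKM + 1), which understates changes of low genes. limma 3.58.1 (R 4.3.3) was fitted to all 4 libraries with line and treatment as terms, the mean-variance trend and Benjamini-Hochberg adjustment over all genes. The fit was also run on simulated data with independent noise and additive changes. That run cannot show how the fit performs where the lines respond differently. Differences of pairs were counted at 1 log2 unit with no test. "Rose" and "fell" refer to the limma threshold of 0.05. Members, lists and the rule for named genes (all members, and list genes past 1 log2 unit with the same sign in both comparisons of a contrast and 5 FPKM in a library) were chosen with earlier results of these data known. Alternatives covered pseudocounts, filters, scalings, the trend, the other term and rows per symbol. Scaling without the 10 highest genes and the sum with ABALON were added after seeing the data. Tables and figures were made in Python 3.11.15 with matplotlib 3.10.9, pandas 2.3.3 and numpy 2.4.6. Some list genes and 1 gene list are not reported here, and that list held more genes called for OTX-015 than any list given.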

Additional observations from a re-analysis of the deposited data

Results flagged for a closer look

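With 1 library per group, a result is listed here when the 2 lines, or the 2 treatments, differed in opposite directions, and none of these differences was tested. OTX-015 minus DMSO had opposite signs in wtBRCA1 and vector cells for BAK1 (0.30 and -0.10, a difference of response of 0.40 log2), BBC3 (0.33 and -0.73, a difference of 1.07) and PMAIP1 (-0.83 and 0.30, a difference of -1.13). With libraries rescaled to the same sum, all 3 had the same sign in both lines. The difference of wtBRCA1 minus vector had opposite signs under OTX-015 and DMSO for MCL1 (-0.17 and 0.20), BCL2L11 (-0.83 and 0.37), BBC3 (0.88 and -0.18) and BIK (0.20 and -0.16).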

How the results depend on the processing

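No member passed limma for either term under 10 of the 11 alternatives fitted. After rescaling to the same sum, 2 passed for OTX-015 and 2 (BIK and BCL2L1) were past 1 log2 unit in both lines. The share of all genes past 1 log2 unit in both lines was not computed in that scaling, so this count has no background to stand beside. That scaling moved the median of all genes under OTX-015 by -0.45 in wtBRCA1 and -0.50 in vector cells. The 1157 genes called for OTX-015 became 756 and 453 with pseudocounts of 0.1 and 5, 81 with no filter, 522 at 5 FPKM, 1761 rescaled to the same sum, 625 by median of ratios, 67 by quantiles, 4 without the trend, 1 without the line term and 270 rescaled without the 10 highest genes. Higher calls were 57.8% of 1157 as deposited, against 8.01% with equal sums and 35.9% without the 10 highest genes. The 1516 genes called for the line became 861 with a pseudocount of 5, 503 with no filter, 828 at 5 FPKM, 846 with equal sums, 697 by quantiles, 173 without the trend, 57 without the treatment term and 742 without the 10 highest genes. The fold of the MCL1 to BCL2L1 ratio in wtBRCA1 cells moved to 2.97 with ABALON added. Other ratios that include BCL2L1 also moved, and some turned. BID over BCL2L1 in wtBRCA1 cells went from 1.30 to 0.681 times its DMSO value. BH3-only over guardian FPKM in vector cells went from 0.870 to 1.10 times. No called difference reversed. The causes were not tested. The labels give no replicate numbers to pair, and the fit compares treatments within lines through its line term. Depth is unknown, so the precision of low members (BCL2, BBC3) cannot be given.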

Other observations

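Some genes around the family, singled out after their values were seen, differed between the lines in their response, with no test. CASP8, the protease that cleaves BID, was at 76.4 and 58.4 FPKM in wtBRCA1 cells under OTX-015 and DMSO and at 16.5 and 73.7 FPKM in vector cells. The vector OTX-015 library was the low one, so CASP8 and BID were each lowest in the OTX-015 library of a different line. CFLAR, which restrains caspase-8, was at 11.6 and 49.2 FPKM in wtBRCA1 and 12.8 and 22.3 FPKM in vector cells, lower under OTX-015 in both lines. TNFRSF1A, a receptor for TNF, was at 110 and 314 FPKM in wtBRCA1 and 109 and 110 FPKM in vector cells, so only the wtBRCA1 DMSO library stood apart. TP63, a transcription factor of basal epithelium, was listed at 0 and 9.93 FPKM in wtBRCA1 and at 0 and 0.147 FPKM in vector cells. DDIT3, a stress-induced factor, was at 51.2 and 19.5 FPKM in wtBRCA1 and 15.1 and 22.4 FPKM in vector cells.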
